A study of Mus musculus with 8 samples.

Results

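The laminins and the other non-collagen proteins of the basement membrane were followed in lens fiber cells (lens FC) of mice through 10 genes. Lama1, Lama5, Lamb1, Lamb2 and Lamc1 encode laminin chains, Nid1 and Nid2 encode nidogens, Hspg2 and Agrn encode the heparan sulfate proteoglycans perlecan and agrin, and Sparc encodes a collagen-binding matrix protein. Each was taken from the 35275 genes listed by its gene symbol, and all 10 were present. The samples were 8 RNA-seq libraries of C57BL/6J mice (C57BL/6 in the sample labels), 4 from CS-exposed mice and 4 from age-matched, untreated Ct mice, and each library was made from a pool of the right-eye lens FC of 4 mice. Dams entered the whole-body smoke chamber in late pregnancy, a few days before the pups were born, and the pups were exposed for 3.5 months, for 5 hours per day on 5 days per week. Pools were male or female, and the sex of each pool was not used. Lens FC were separated from the lens epithelium by hand under a microscope. Expression is given in FPKM, fragments per gene length and per library depth, so that levels can be compared between genes.

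A basement membrane is a thin sheet of matrix on which cells rest, and the lens capsule is a thick one that encloses the whole lens. Laminins, which are trimers of an alpha, a beta and a gamma chain, polymerise on the cell surface through integrins and dystroglycan, and nidogens and perlecan link the laminin sheet to the type IV collagen network. The capsule is laid down by the lens epithelium at the front and by the ends of the fiber cells at the back, and mice without Sparc develop cataract.

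The labelled cell type was checked first. All 12 lens fiber markers were expressed, with a summed level of 230686 to 240636 FPKM in a library. Of these, 2, Lgsn and Hsf4, were higher in CS-exposed mice at an unadjusted limma p under 0.05. Among all genes tested 4.83% had such a p in either direction. The adjusted p was 0.956 for both, and the exact permutation p was 0.143 for Lgsn and 0.0286 for Hsf4. The 7 lens epithelium markers summed to 62.5 to 117 FPKM in untreated Ct libraries and 51.9 to 79.6 FPKM in CS-exposed libraries. Endothelium markers summed to at most 0.530 FPKM and macrophage markers to at most 0.640 FPKM, and pericyte and fibroblast markers, nearly all of it Pdgfrb, to 12.3 to 15.0 FPKM. Blood markers summed to 0.265 to 1.73 FPKM in untreated Ct libraries and 0.4999 to 22.8 FPKM in CS-exposed libraries, of which replicate 4 was the highest. Pigmented cell markers summed to 0.536 to 2.72 and to 1.29 to 6.80 FPKM. The markers of Müller glia and astrocytes summed to 6.46 to 13.2 FPKM. Hbb-bs, Hba-a1, Rpe65 and Rlbp1 of these lists passed the filter of 1 FPKM only through the CS-exposed and Gfap only through the untreated Ct libraries, and no test is given for them. Rod photoreceptor markers summed to 7.28 to 20.1 FPKM in untreated Ct libraries and to 20.4 to 58.3 FPKM in CS-exposed libraries. Of these, Gnat1 and Rom1 were above 1 FPKM in both groups. Gnat1 was at 7.03 ± 3.71 FPKM in untreated Ct against 21.5 ± 11.01 FPKM in CS-exposed mice (± SD with n = 4). Rom1 hardly differed, at 5.46 ± 0.839 against 6.02 ± 0.832 FPKM. Sag, Pde6a, Pde6b and Prph2 passed 1 FPKM only through the CS-exposed libraries, and no test is given for them. The part of these other cells in the values below was not tested, except for the lens epithelium, which is taken up with the spread among libraries. By the steps in low FPKM values, libraries held an estimated 18100000 to 23300000 fragments.

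Within lens FC the 10 genes spanned a wide range of levels, with Sparc and Nid1 far above the rest. Over the 8 libraries the order from highest to lowest was Sparc, Nid1, Hspg2, Lama5, Lamb2, Lamb1, Lama1, Lamc1, Agrn and Nid2. Sparc stood 2.42-fold above Nid1, Nid1 4.48-fold above Hspg2, and Hspg2 2.41-fold above Lama5, each in 8 of 8 libraries. The laminin chains followed closely on each other, Lama5 being 1.59-fold above Lamb2 and Lamb1 1.65-fold above Lama1, again in 8 of 8 libraries. Lamc1 stood 7.90-fold above Agrn, and Agrn 3.12-fold above Nid2, on the FPKM + 0.1 scale, which understates both. For these 7 pairs of neighbours the two-sided exact sign-flip test gave p = 0.00781, the smallest that 8 libraries allow, and an adjusted p of 0.010 over the 9 pairs. The other 2 pairs did not differ beyond the spread between libraries after adjustment. Lamb2 was 1.06-fold Lamb1 and the higher of both in 5 of 8 libraries (exact p = 0.203, adjusted p = 0.203), and Lama1 was 1.13-fold Lamc1 and higher in 6 of 8 (exact p = 0.0469, adjusted p = 0.0527). The deposited FPKM were scaled to the longest annotated transcript, or close to it. With all annotated exons as the length instead, Sparc was 1.69-fold Nid1, and Lamb1 and Lama1 changed places without differing (adjusted p = 0.688). By that length Lamb2 was 1.67-fold Lamb1 and higher in 8 of 8 libraries (exact p = 0.00781), so whether these genes differ rests on the length used.

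**Figure D1:**
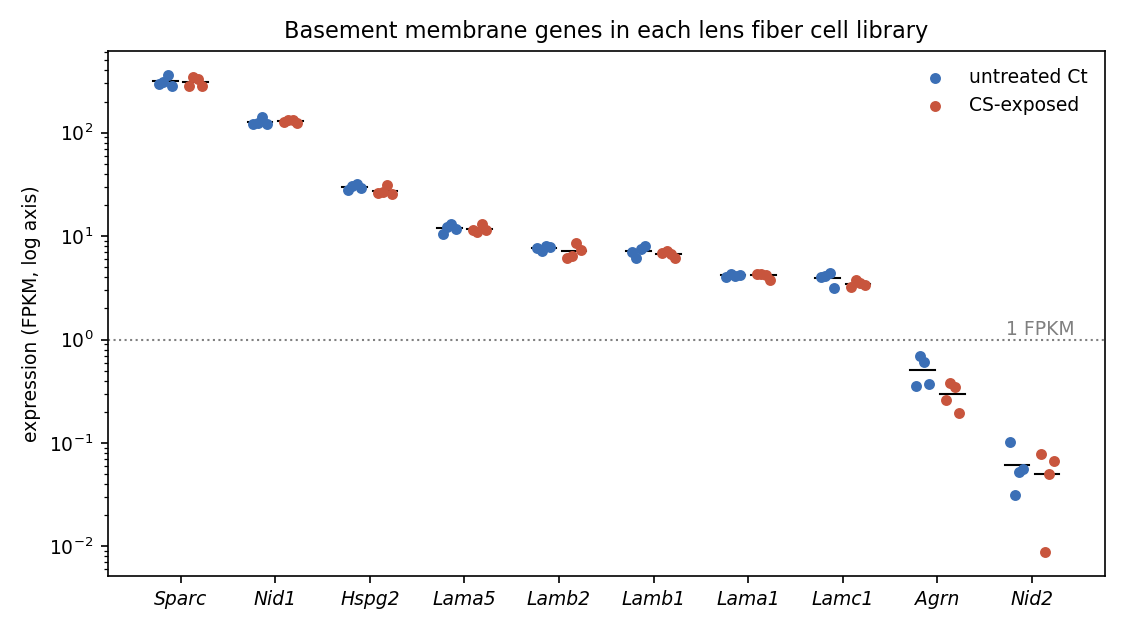
Expression of the 10 basement membrane genes in FPKM on a log axis, with 1 point per library, blue for untreated Ct and red for CS-exposed mice, and a black line at the mean of each group. The genes spread from 365 FPKM for Sparc to under 0.110 FPKM for Nid2, the points of both groups overlap for every gene, and only Agrn and Nid2 lie below the dotted line at 1 FPKM.

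Sparc, the matrix protein that binds collagen IV and helps to assemble it, lies on chr11:55394500-55423183 on the minus strand of GRCm38. It was at 298, 313, 365 and 283 FPKM in untreated Ct mice and at 285, 347, 329 and 282 FPKM in CS-exposed mice, on 11777 to 19514 reads per library. Means were 315 ± 35.6 and 310 ± 32.3 FPKM (SD, n = 4 each), and each group had high and low libraries that overlapped with the other. The log2 fold change of CS-exposed over untreated Ct mice was -0.02 (SE 0.08, 95% interval -0.20 to 0.17, limma adjusted p = 0.995, two-sided exact permutation p = 0.857).

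Nid1, which bridges the laminin gamma chain and type IV collagen, lies on chr13:13437551-13512269 on the plus strand. Its levels were 122, 126, 141 and 122 FPKM in untreated Ct mice and 126, 134, 134 and 124 FPKM in CS-exposed mice. Apart from the third Ct library, which was the highest, the libraries lay close together, and the means were 128 ± 9.33 and 129 ± 5.24 FPKM (SD, n = 4 each). The log2 fold change was 0.02 (SE 0.06, 95% interval -0.10 to 0.14, adjusted p = 0.991, exact permutation p = 0.771), the narrowest interval among the 8 tested members of the set. Nid1 shares 143 exon bases, 2.06% of its exons, with Gm48682 on the opposite strand.

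Its relative Nid2, on chr14:19751265-19811787 on the plus strand, was nearly absent. It was at 0.103, 0.0311, 0.0528 and 0.0566 FPKM in untreated Ct mice and at 0.0776, 0.00887, 0.0499 and 0.0662 FPKM in CS-exposed mice, which rested on 1 to 10 reads per library. At this depth no difference between the groups was detectable (exact permutation test, p = 0.657). Of its exons, 8.45% are shared with Rtraf on the opposite strand, and as the strand setting of the counting is not given in the sources used here, reads of either gene cannot be told apart there.

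Hspg2, the gene of perlecan, the large heparan sulfate proteoglycan of most basement membranes, lies on chr4:137468769-137570630 on the plus strand. Values were 28.3, 30.4, 31.9 and 29.0 FPKM in untreated Ct mice and 26.3, 26.9, 31.2 and 25.5 FPKM in CS-exposed mice. Of the 4 CS-exposed libraries 3 were below all untreated Ct libraries, and the remaining library, replicate 3, was above 3 of them. With means of 29.9 ± 1.59 and 27.5 ± 2.54 FPKM (SD, n = 4 each), the log2 fold change was -0.12 (SE 0.07, 95% interval -0.28 to 0.04, adjusted p = 0.956, exact permutation p = 0.171). Leaving out single libraries moved it from -0.19 without CS replicate 3 (unadjusted p of 0.0151, adjusted p of 0.956) to -0.09 without CS replicate 4. With limma-voom on the recovered reads the unadjusted p was 0.0318, where 4.94% of genes were under 0.05, and the adjusted p was 0.955.

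Agrn, on chr4:156165290-156197488 on the minus strand, encodes agrin, a proteoglycan that binds laminin and dystroglycan. It was below the filter of 1 FPKM in both groups and so did not enter the limma fit. Its levels were 0.356, 0.688, 0.609 and 0.372 FPKM in untreated Ct mice and 0.259, 0.382, 0.351 and 0.193 FPKM in CS-exposed mice, on 36 to 122 reads per library. The groups overlapped, as the second CS-exposed library was above the first and the fourth Ct libraries. The mean in CS-exposed mice was 0.585 times that in untreated Ct mice (0.296 ± 0.0864 against 0.506 ± 0.167 FPKM, SD, n = 4 each), a difference of -0.60 on the log2(FPKM + 0.1) scale that did not pass the exact permutation test (p = 0.114) and was -0.21 with a pseudocount of 1 and -0.74 with 0.01. A limma-voom fit of genes with at least 10 recovered reads, chosen after seeing the data, gave a log2 fold change of -0.78 (95% interval -1.39 to -0.17) with an unadjusted p of 0.0151, where 4.72% of genes were under 0.05, and an adjusted p of 0.962.

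Of the laminin alpha chains, Lama5, a chain widespread in epithelial basement membranes, lies on chr2:180176373-180225859 on the minus strand. Its levels were 10.6, 12.2, 13.05 and 11.6 FPKM in untreated Ct mice and 11.4, 10.96, 13.2 and 11.5 FPKM in CS-exposed mice. Replicate 3 was the highest of each group, and the log2 fold change was -0.01 (SE 0.09, 95% interval -0.20 to 0.18, adjusted p = 0.995, exact permutation p = 0.886). Lama1, the chain of laminin-111, the laminin of early embryonic basement membranes, lies on chr17:67697259-67822647 on the plus strand. It was at 4.0, 4.33, 4.11 and 4.23 FPKM in untreated Ct mice and at 4.31, 4.33, 4.23 and 3.803 FPKM in CS-exposed mice, with equal means of 4.17 FPKM (SD 0.142 and 0.248, n = 4 each). The 95% interval of its log2 fold change was -0.20 to 0.20, and the adjusted p in limma was 0.9995.

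Of the beta chains, Lamb2 is at chr9:108479736-108490530 and Lamb1 at chr12:31265234-31329644, both on the plus strand. Lamb2 was at 7.65, 7.12, 8.12 and 7.92 FPKM in untreated Ct mice and at 6.19, 6.48, 8.51 and 7.27 FPKM in CS-exposed mice. Its CS-exposed libraries held both the lowest and the highest values, and the log2 fold change was -0.12 (SE 0.10, 95% interval -0.35 to 0.11, adjusted p = 0.965, exact permutation p = 0.314). Leaving out single libraries moved it from -0.21 without CS replicate 3 (unadjusted p of 0.0447, adjusted p of 0.956) to -0.06 without CS replicate 1. Lamb1 was at 6.97, 6.16, 7.48 and 8.09 FPKM and at 6.83, 7.16, 6.71 and 6.19 FPKM, with a log2 fold change of -0.09 (SE 0.10, 95% interval -0.30 to 0.13, adjusted p = 0.983, exact permutation p = 0.371), which leaving out single libraries moved from -0.16 without Ct replicate 2 to -0.03 without Ct replicate 4.

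Lamc1, the gamma chain of most laminin trimers, lies on chr1:153218922-153332786 on the minus strand. Its levels were 4.05, 4.16, 4.37 and 3.15 FPKM in untreated Ct mice and 3.26, 3.74, 3.503 and 3.41 FPKM in CS-exposed mice. Of the Ct libraries 3 were above all CS-exposed libraries, and the fourth was the lowest of all 8. The log2 fold change was -0.16 (SE 0.12, 95% interval -0.42 to 0.10, adjusted p = 0.956, exact permutation p = 0.171). Leaving out single libraries moved it from -0.26 without Ct replicate 4 (unadjusted p of 0.0290, adjusted p of 0.944) to -0.11 without Ct replicate 3.

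Of the 8 genes tested, 0 of 8 had an unadjusted p under 0.05 in limma, where 4.83% of the 9794 genes tested did (2.08% lower and 2.75% higher in CS-exposed mice), and 0 of 8 had an adjusted p under 0.05, where 0.0102% did. The adjusted p-values of the 8 genes were 0.956 or above. The groups were free of overlap for 0 of 10 genes, against 3.08% of the genes tested. Log2 fold changes were negative for 6 of 8 genes, against 48.8% of the genes tested, and their median was -0.05 against 0.0043 over the genes tested. The 95% intervals of the 8 genes lay between -0.42 and 0.20, so that changes beyond this range were outside all of them. The coefficient of variation over the 8 libraries had a median of 8.71% for these genes and of 12.0% for the genes tested. These sets were not matched for level or for reads, so the medians are not a like comparison. In bulk RNA, fewer cells of a type and less RNA per cell cannot be told apart, and the p-values measure the spread between pools.

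**Figure D2:**
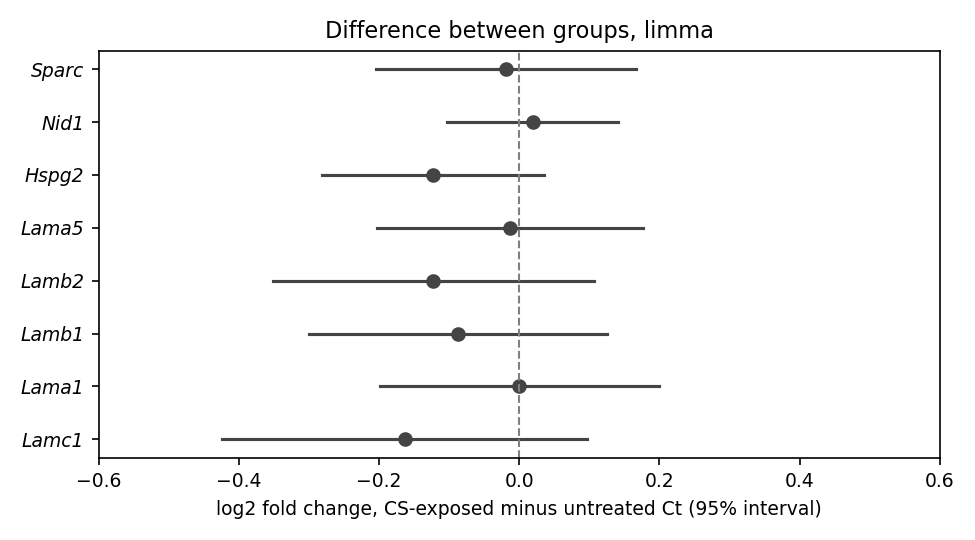
Log2 fold change of the 8 tested genes, CS-exposed over untreated Ct mice, from the limma fit. Points are estimates and bars their 95% intervals. All 8 bars cross the dashed line at 0, and Lamc1, Hspg2 and Lamb2 have the lowest estimates, from -0.16 to -0.12.

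As a laminin trimer takes a chain of each kind, levels were also summed over the alpha chains and over the beta chains. The 5 alpha chains together were at 29.3 ± 1.68 FPKM in untreated Ct mice and 29.6 ± 2.34 FPKM in CS-exposed mice (± SD with n = 4), and the 3 beta chains at 14.9 ± 1.23 and 14.0 ± 0.916 FPKM. In each of the 8 libraries the alpha sum was above the beta sum. Neither sum passed the exact permutation test between groups (p = 0.914 for alpha and 0.257 for beta). Lama5 made up 38.4% to 42.4% of the alpha chains and Lama1 12.8% to 15.2%. Lamb1 and Lamb2 shared the beta chains, with 44.1% to 52.2% from Lamb1 by the deposited FPKM. By exon union length the mean of Lamb1 was 4.05 FPKM and that of Lamb2 6.85 FPKM, a smaller share for Lamb1. Of the 4 other alpha and beta chains, Lama3, known from epithelia, was at 9.83 ± 0.457 and 10.4 ± 1.41 FPKM and Lama2, known from muscle, at 3.43 ± 0.316 and 3.26 ± 0.638 FPKM (SD, n = 4 each). Lama4 and Lamb3 stayed at or under 0.328 FPKM in every library. Of these other chains 2 of 4 were tested and 0 had an unadjusted p under 0.05.

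**Figure D3:**
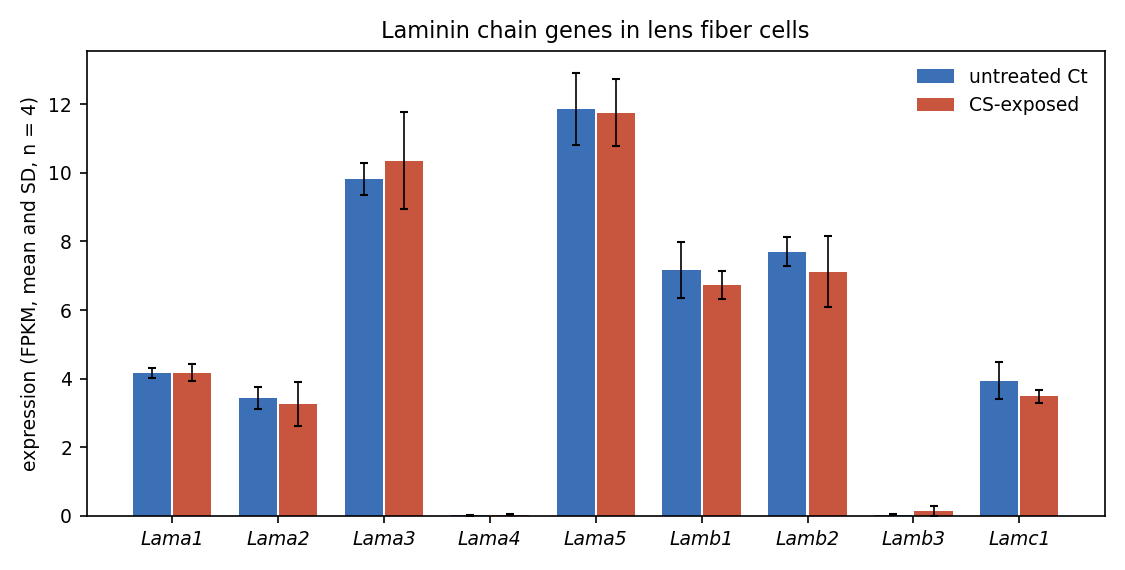
Mean expression of laminin chain genes in FPKM in untreated Ct mice (blue) and CS-exposed mice (red), with bars for the SD of 4 libraries. Lama5 and Lama3 are the highest alpha chains, Lamb1 and Lamb2 are close to each other, and Lamc1 is near Lama1.

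Related genes were also set against each other within each library. The ratio of Lama5 to Lama1 was 2.80 in untreated Ct mice and 2.77 in CS-exposed mice, and that of Lamb2 to Lamb1 was 1.08 and 1.05, on the FPKM + 0.1 scale. These ratios differed by -0.01 and -0.04 on the log2 scale (exact permutation p = 0.943 and 0.800, adjusted p = 0.943 for both). The ratio of Nid2 to Nid1 differed by -0.12 (exact p = 0.686, adjusted p = 0.943). That of Agrn to Hspg2 was lower in CS-exposed mice by the widest margin of the 4, with a difference of -0.48 on the log2 scale (exact p = 0.0857, adjusted p = 0.343). Ratios with these low genes rest on the pseudocount. With a pseudocount of 1 that of Agrn to Hspg2 differed by -0.09 (exact p = 0.257) and that of Nid2 to Nid1 by -0.03, and with 0.01 they differed by -0.62 and -0.36.

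The libraries differed in the mean level of lens epithelium markers, and several of the genes varied with it. A score, the mean log2(FPKM + 0.1) of Foxe3, Cdh1, Pdgfra, Gja1, Pax6, Tfap2a and Mki67, was 1.87, 2.28, 2.76 and 1.90 in untreated Ct mice and 1.81, 2.20, 2.35 and 1.77 in CS-exposed mice. It overlapped between the groups and differed by -0.17 (exact permutation p = 0.457). The markers in the score did not all move together. Foxe3 ranged from 17.5 to 64.0 FPKM and was highest in Ct replicate 3, which had the highest score. Tfap2a ranged only from 7.38 to 9.10 FPKM, and in Ct replicate 3 it was the lowest of the Ct libraries, at 8.01 FPKM. Mki67 was at 0.0300 to 0.246 FPKM. Over the 8 libraries Sparc followed the score with r = 0.917 (exact permutation p = 0.00223, adjusted p = 0.0223 over the 10 genes) and rho = 0.857 (exact p = 0.0107, adjusted p = 0.0536). Nid1 gave r = 0.888 (exact p = 0.00556, adjusted p = 0.0278) and rho = 0.667 (exact p = 0.0831). Hspg2 gave r = 0.811 (exact p = 0.0161, adjusted p = 0.0537) and rho = 0.929 (exact p = 0.00223, adjusted p = 0.0223). The remaining genes did not pass after adjustment, with r from 0.765 for Agrn and 0.744 for Lama5 through 0.295 for Lama1 and 0.161 for Lamb1 to -0.462 for Nid2. Among all genes tested the median r was 0.114, 6.78% of genes reached 0.7, and the r of Sparc was reached by 0.521% of genes, that of Nid1 by 0.990%, that of Hspg2 by 2.70% and that of Lama5 by 4.91%.

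Without the 2 libraries farthest from the median score, r was 0.831 for Sparc, 0.606 for Nid1 and 0.591 for Hspg2. With the group means taken out, r was 0.934 for Sparc (adjusted exact p = 0.00955), 0.966 for Nid1 (adjusted exact p = 0.000496) and 0.830 for Hspg2 (adjusted exact p = 0.0328). Without Ct replicate 3, which was highest in the score, in Sparc and in Nid1, r was 0.857 for Sparc and 0.750 for Nid1, and the adjusted exact p over 7 libraries was 0.169 for both. Adjusted exact p also rose above 0.05 for Sparc without CS replicate 3 (0.0630) or 4 (0.0536), and for Nid1 without Ct replicate 1 (0.0556) or 4 (0.0605) or without CS replicate 3 (0.0630) or 4 (0.0536). Quantile normalization likewise left neither below 0.05 (Sparc r = 0.747, adjusted exact p = 0.0753, and Nid1 r = 0.851, adjusted exact p = 0.0603), and with median centring Nid1 was at r = 0.770 (adjusted exact p = 0.108). For Hspg2 the adjusted exact p of rho was above 0.05 without Ct replicate 2 (0.119) or 3 (0.123), without CS replicate 1 (0.114), 3 (0.0615) or 4 (0.123), with median centring (0.0769), with a pseudocount of 0.01 (0.0724) and with the group means taken out (0.0513).

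**Figure D4:**
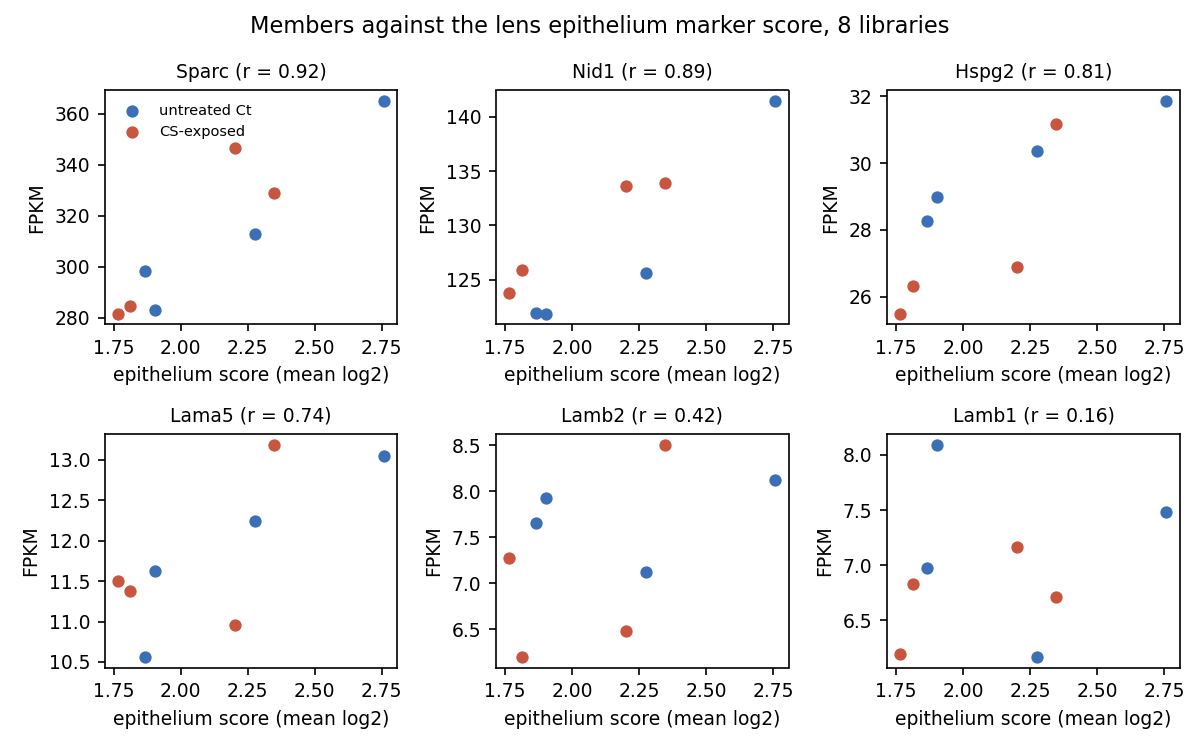
Expression in FPKM of Sparc, Nid1, Hspg2, Lama5, Lamb2 and Lamb1 (vertical axes, each with its own range that does not start at 0) against the lens epithelium score, the mean log2(FPKM + 0.1) of 7 markers (horizontal axes), with 1 point per library, blue for untreated Ct and red for CS-exposed mice. Sparc, Nid1 and Hspg2 rise along the score from left to right, with r on the log2 scale falling from 0.917 for Sparc to 0.161 for Lamb1.

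Among the 8 tested genes, Nid1 and Sparc varied most closely together over the 8 libraries (r = 0.922), followed by Lama5 and Hspg2 (r = 0.758) and Lamb2 and Hspg2 (r = 0.717), while Lama1 and Lamb2 gave the lowest value of the pairs formed by the 8 tested genes (r = -0.301). These are descriptions over the same 8 libraries, which differed in depth and in the epithelium score. The mean centred log2 profile of the 10 genes was most like those of Pam, Folr1, Rasl12, Ptprs and Rpn1 (r = 0.988, 0.975, 0.964, 0.959 and 0.958). With the barely expressed Agrn and Nid2 left out, the nearest genes were Col4a3, Sptan1, Arsi, Folr1 and Igfbp7 (r = 0.981, 0.972, 0.972, 0.971 and 0.969), the first of them a type IV collagen.

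Other genes of the basement membrane, its receptors and its assembly were read from the same fit in 9 lists, and 0 of them had an adjusted p under 0.05. All 6 type IV collagens were tested and 0 had an unadjusted p under 0.05, with 6 of 6 fold changes negative (48.8% of all genes tested), a median log2 fold change of -0.12 and a level of 141 ± 29.8 against 127 ± 15.1 FPKM (SD, n = 4 each) for Col4a1, the chain of every basement membrane. Of the 6 lens epithelium markers tested 5 were also negative, with a median of -0.14, and their part in the collagen values was not tested. By its own comparison, which was not used here, the paper names Col4a4 and Col4a5 among the genes lower in CS-exposed mice. In the limma fit their log2 fold changes were -0.11 (unadjusted p = 0.135) and -0.13 (unadjusted p = 0.148). Of 15 laminin receptors 10 were tested and 0 passed an unadjusted p of 0.05 (median -0.03). Itga6, the integrin chain that binds laminin, was at 93.5 ± 3.62 and 92.8 ± 2.44 FPKM, and its partner chain Itgb1 at 37.5 ± 0.239 and 38.8 ± 2.36 FPKM. The syndecans Sdc2 and Sdc1 followed, with 25.9 ± 1.76 and 25.6 ± 2.33 FPKM and with 23.8 ± 2.48 and 24.6 ± 2.42 FPKM. The 10 genes for dystroglycan partners and glycosylation that were matched by symbol, of 12, were tested and 0 passed (median 0.02), the highest being Sgce, a sarcoglycan, at 14.4 ± 0.718 and 15.02 ± 1.12 FPKM. Of 15 genes of heparan sulfate synthesis 14 were tested, and of 7 genes of the SPARC family 3, and 0 passed in either list (median -0.08 in both). The highest of these were B3gat3, which completes the linker on which heparan sulfate is built, at 28.7 ± 0.396 and 28.1 ± 2.47 FPKM, and Fstl1 of the SPARC family at 22.4 ± 4.84 and 20.8 ± 3.33 FPKM.

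Over the 9 lists 3 of the 68 genes tested had an unadjusted p under 0.05, or 4.41%, which is close to the 4.83% among all genes tested. They stood in 3 lists. Of 16 other basement membrane proteins 4 were tested (median -0.50), and Npnt, the integrin ligand nephronectin, was lower, at 3.71 ± 0.649 in CS-exposed against 5.20 ± 1.18 FPKM in untreated Ct mice (SD, n = 4 each, log2 fold change -0.47, unadjusted limma p = 0.0160, adjusted p = 0.956, exact permutation p = 0.0571). Vtn, which encodes the adhesion protein vitronectin, is named after its values were seen, as the 1 gene of the 102 in these lists whose groups did not overlap (0.980%, against 3.08% of all genes tested). It was below the filter of 1 FPKM, at 0.0288, 0.116, 0.0247 and 0.158 FPKM in untreated Ct mice and 0.489, 0.720, 1.03 and 0.239 FPKM in CS-exposed mice, all 4 of them higher. The exact permutation p of 0.0286, the smallest for 4 against 4, only restates that the groups did not overlap. It was not adjusted over the 102 genes. The summed rod photoreceptor markers did not overlap either, being higher in all 4 CS-exposed libraries, and their part in the level of Vtn was not tested. Of 13 genes of collagen crosslinking and folding 10 were tested (median 0.06), and Plod1, a collagen lysyl hydroxylase, was higher, at 7.21 ± 0.442 against 6.13 ± 0.809 FPKM (log2 fold change 0.24, unadjusted limma p = 0.0415, adjusted p = 0.956, exact permutation p = 0.0571). Of 16 matrix proteases and inhibitors 9 were tested (median -0.01), and Adam10, a membrane-bound sheddase, was higher, at 28.3 ± 2.48 against 25.1 ± 1.27 FPKM (log2 fold change 0.17, unadjusted limma p = 0.0354, adjusted p = 0.956, exact permutation p = 0.0857).

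To show the sequence from which these genes are read, the RefSeq windows of 250 bases before to 50 bases after the gene start (GRCm38.p6) were searched, and 7 of the 10 genes were matched. Of 32851 windows, 35.7% held GGGCGG, the core of the GC box, on either strand, and 10.7% held it at least 3 times. Hspg2 had 5 copies, Lama5 4, Lamb1 2 and Nid1 1, Agrn had 2 in a first and 12 in a second window, and Lamb2 and Sparc had none of these letters in theirs. CCAAT was found for Lamb1 and Nid1 (37.4% of all windows), and TATAAA (13.6%) and TGANTCA (7.81%) for 0 of the 7 genes. The stretches before the annotated exons of Hspg2 (chr4:137468553-137468768, plus strand), Lama5 (chr2:180225860-180226109, minus strand), Lamb1 (chr12:31265043-31265233, plus strand) and Nid1 (chr13:13437352-13437550, plus strand) are given 5′ to 3′ for the genes that were both tested and matched with a copy, with each copy in capitals, as GGGCGG or, on the other strand, CCGCCC:
Hspg2: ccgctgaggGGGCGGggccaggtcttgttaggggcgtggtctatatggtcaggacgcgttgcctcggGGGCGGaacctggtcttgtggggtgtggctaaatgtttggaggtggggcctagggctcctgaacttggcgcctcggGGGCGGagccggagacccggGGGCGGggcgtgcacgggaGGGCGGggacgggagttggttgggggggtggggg
Lama5: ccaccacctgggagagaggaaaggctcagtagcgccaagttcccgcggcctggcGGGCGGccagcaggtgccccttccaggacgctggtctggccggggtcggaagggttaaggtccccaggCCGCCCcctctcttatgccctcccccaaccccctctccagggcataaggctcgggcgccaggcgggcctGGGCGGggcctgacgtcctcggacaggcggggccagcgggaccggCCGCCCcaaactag
Lamb1: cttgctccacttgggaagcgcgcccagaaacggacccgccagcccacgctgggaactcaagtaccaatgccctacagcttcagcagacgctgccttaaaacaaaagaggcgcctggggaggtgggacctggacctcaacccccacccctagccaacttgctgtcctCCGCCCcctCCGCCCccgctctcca
Nid1: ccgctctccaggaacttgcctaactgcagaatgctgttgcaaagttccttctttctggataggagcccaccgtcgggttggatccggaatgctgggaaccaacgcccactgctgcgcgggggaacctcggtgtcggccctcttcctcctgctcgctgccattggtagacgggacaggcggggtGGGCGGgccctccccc
The number of copies did not order the genes by level, since Sparc, the highest gene, had none and Agrn, with FPKM under 1, had the most, and a match is a description of letters and not of a bound site.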

How the data were processed

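Per the labels, total RNA of lens FC was sequenced in 8 pooled libraries prepared with the NEBNext Ultra kit. According to the submitters' processing notes, STAR 2.5 and HTSeq 0.6.1 were used with GRCm38, and the annotation release is not given in the sources used here. The authors deposited FPKM per library. They also deposited group means and DESeq2 log2 fold changes with p-values, which were not used. The 10 genes and all gene lists were chosen with earlier results of these data known.

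Where the mean of a group reached 1 FPKM, a gene was tested (9794 of 35275, among them 8 of the 10). Values were fitted on log2(FPKM + 0.1) with limma 3.58.1 (trended variance, two-sided) in R 4.3.3, and p-values were adjusted over the 9794 genes by Benjamini-Hochberg. This scale understates the fold change of low genes. The code was tested on simulated data. Single values were compared by exact permutation over 70 assignments of 4 against 4 libraries (smallest p 0.0286), neighbouring levels by 256 sign patterns, and correlations over 40320 pairings, in Python 3.11.15 with scipy 1.17.1. Whole reads, within 0.02 reads, were recovered from the FPKM for 99.8% of the tested genes. Depth in fragments is an estimate that rests on GENCODE M21 transcript lengths, and coordinates are from the same annotation.

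All 10 genes are named, as are the 5 genes nearest in profile. From each of the 9 lists, genes with an unadjusted p under 0.05 or otherwise up to 4 with the highest mean FPKM are named. The cell type markers are outside this rule. Alternatives were the pseudocounts 1 and 0.01, a filter of 5 FPKM or none, median centring, quantile normalization, no variance trend, the replicate number as a block, limma-voom on recovered reads, and leaving out each library. Levels per exon union length and limma-voom at a mean of 10 reads were added after seeing the data. Sex was not modelled, the proteome was not analysed here, and list entries left out are not reported here.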

Additional observations from a re-analysis of the deposited data

How the results depend on the processing

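Of the 9794 genes tested 473 had an unadjusted p under 0.05. Without a filter it was 862 of 21019 genes, at a minimum of 5 FPKM 226 of 4822, and leaving out each library gave 418 to 525. The adjusted count of 1 became 0 without a filter and 0 without a variance trend, 2 with limma-voom on recovered reads and 2 at a mean of 10 reads, and 0 to 1 when leaving out each library. Of the members 0 had an unadjusted p under 0.05 as reported, 1 with limma-voom (Hspg2), 2 at a mean of 10 reads (Hspg2 and Agrn), and 0 to 2 when leaving out each library. Their median log2 fold change then ranged from -0.08 to -0.03.

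The replicate numbers were not taken as pairs. Same-numbered libraries correlated with r = 0.0120, 0.0777, 0.111 and 0.161 in their deviations, and not all were above 0.1. Ct replicates 2, 3 and 4 correlated best with their own number and Ct replicate 1 did not, which is a hint from the data and not from the design. With the replicate block 522 genes had an unadjusted p under 0.05, 5 an adjusted p under 0.05, and 0 of the members either.

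Estimates close to 0 changed sign. Lama1 had -0.0049 with median centring and -0.0037 with quantile normalization, which also gave Nid1 -8.76e-05 and Sparc 0.00083. Leaving out each library gave -0.019 to 0.043 for Lama1, -0.069 to 0.033 for Lama5, -0.0021 to 0.070 for Nid1, -0.074 to 0.054 for Sparc and -0.19 to 0.048 for Nid2. The log2 ratios ranged from -0.062 to 0.040 for Lama5 to Lama1, -0.12 to 0.036 for Lamb2 to Lamb1, -0.22 to 0.044 for Nid2 to Nid1 and -0.59 to -0.34 for Agrn to Hspg2.

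The 2 genes with an adjusted p under 0.05 against the epithelium score became 1 with median centring, 0 with quantile normalization and 0 to 4 when leaving out each library. For Lama1 r was -0.085 with median centring, -0.18 with quantile normalization and -0.063 to 0.60 without single libraries, and for Lamb1 -0.016 and -0.16 to 0.48. Of the 9 neighbours in level 7 to 8 differed when leaving out each library. The causes were not tested. Nid2 rested on 1 to 10 reads per library and Agrn on 36 to 122.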
